A study of Sus scrofa and Rattus norvegicus with 8 samples.

Results

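Matrix metalloproteases (MMP), ADAM and ADAMTS proteases, the protease-free ADAMTS-like (ADAMTSL) proteins and the tissue inhibitors of metalloproteases (TIMP) were examined by RNA-seq in subcutaneous fat of 6 pigs. Members were chosen by gene symbol alone, as every named gene called MMP, TIMP, ADAM, ADAMTS or ADAMTSL with a number, and no measured value entered the choice. This gave 63 of 14844 named nuclear genes, of which 18 were MMPs, 3 TIMPs, 18 ADAMs, 19 ADAMTSs and 5 ADAMTSLs. Another 2 symbols of the rule, MMP3 and ADAM2, were not analysed here, and neither was TIMP2, so each TIMP total leaves TIMP2 out.

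All 6 pigs were adult Bama females with an age of 2 years, and the tissue was the upper layer of backfat. No treatment or genotype is given, and there was 1 group, so no test between groups was possible and every statement describes the spread between the 6 animals. The study also holds 2 pools of inguinal white fat from adult female SD rats with an age of 32 weeks, whose gene IDs have no names in the sources used here, and they were not analysed here. Whole tissue was sequenced, so fewer cells of a type and less RNA per cell cannot be told apart.

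MMPs and the ADAM and ADAMTS proteases are zinc enzymes made as inactive precursors. In the MMPs a cysteine of the propeptide holds the zinc until the propeptide is cut off. MMPs cleave collagens and other matrix proteins, ADAMs are mostly membrane proteins that release the outer parts of other membrane proteins, and ADAMTSs are secreted enzymes that act on procollagen, proteoglycans and von Willebrand factor. TIMPs block them by occupying the zinc site. In fat, matrix around the adipocytes has to be opened and rebuilt when the cells enlarge, and most of these genes are expressed by stromal, vascular and immune cells as well as by adipocytes.

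Expression was measured in TPM, which divide transcript abundance by length and set every library to a sum of 1000000. Named nuclear genes held 24.1 to 26.3% of that total in replicates 1, 2, 3 and 6, but 3.34% in replicate 4 and 4.73% in replicate 5, and the mitochondrially encoded genes held 10.8 to 21.2% in the former and 0.209 and 0.298% in the latter. The rest was taken by unnamed IDs. Levels are therefore given as rescaled TPM, in which the named nuclear genes of a library were set to 1000000, a factor of 3.80 to 4.15 in those 4 libraries, 29.9 in replicate 4 and 21.1 in replicate 5. After rescaling, the median named nuclear gene was still at 0.681 times in replicates 4 and 5 (mean of both) what it was in the other 4 libraries, so ratios between these libraries are read against that value. The fat label held in all 6 libraries, with ADIPOQ at 2437 to 3746 rescaled TPM and PLIN1 at 1247 to 2137, while the skeletal muscle markers ACTA1, CKM and TNNT3 summed to 0.887 to 10.98.

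The catalytic site is what makes these proteins proteases, and the coding sequence around it is shown for the 3 most abundant MMPs, for ADAM9 and ADAM17, and for MMP8, the neighbour of MMP27 on chromosome 9. ADAM10, the second most abundant ADAM, holds the motif across an exon junction and is therefore not shown. All runs were read from the pig genome (Sscrofa11.1) with RefSeq gene models and are given 5′ to 3′ on the gene's strand. Capitals mark the codons of the elongated zinc-binding motif, in which the histidines hold the metal. MMP2 (ENSSSCG00000002829) is on the minus strand in exon 8 of 13 at chr6:30073676-30073738, MMP14 on the minus strand in exon 4 of 9 at chr7:76179127-76179189, MMP27 on the minus strand in exon 5 of 10 at chr9:33371993-33372055 and MMP8 on the minus strand in exon 5 of 10 at chr9:33390453-33390515. ADAM9 is on the minus strand in exon 11 of 22 at chr15:47562199-47562261 and ADAM17 on the plus strand in exon 11 of 19 at chr3:126835036-126835098.
MMP2: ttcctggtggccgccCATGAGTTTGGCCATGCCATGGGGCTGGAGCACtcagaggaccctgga
MMP14: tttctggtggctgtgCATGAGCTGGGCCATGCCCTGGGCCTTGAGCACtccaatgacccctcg
MMP27: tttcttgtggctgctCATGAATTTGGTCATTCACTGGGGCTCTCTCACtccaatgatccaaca
MMP8: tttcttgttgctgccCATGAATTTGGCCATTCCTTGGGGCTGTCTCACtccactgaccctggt
ADAM9: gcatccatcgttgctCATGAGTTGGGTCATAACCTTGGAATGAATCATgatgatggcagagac
ADAM17: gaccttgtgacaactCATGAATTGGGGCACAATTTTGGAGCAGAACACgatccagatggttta

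The windows of MMP27 and MMP8 matched at 51 of 63 bases, those of MMP2 and MMP14 at 47, and those of ADAM9 and ADAM17 at 31. The motif was searched in the longest RefSeq coding model of the 59 members that matched RefSeq by symbol. It was found in 18 of 18 MMPs, always within 1 exon, and in 13 of 19 ADAMTSs, always across an exon junction. None of the 3 TIMPs and none of the 5 ADAMTSLs held it. Of the 14 ADAMs with a model, 9 held it. These 9 had a median of mean levels of 45.4 rescaled TPM (4.23 to 255), and the 5 without it, ADAM7, ADAM11, ADAM22, ADAM23 and ADAM30, one of 2.01 (0 to 12.2). ADAM18, ADAM20, ADAM21 and ADAM32 had no model and are in neither set. Their means were 0.0766, 1.61, 0.381 and 11.2, so the difference between the sets could change with them. For the 6 ADAMTSs without these codons no absence of a zinc site can be read from this. In 5 of them, ADAMTS1, ADAMTS4, ADAMTS9, ADAMTS15 and ADAMTS20, the motif occurred with asparagine in place of its glycine, a form searched for after the values were seen. ADAMTS8 matched neither form.

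The propeptide sequence that keeps MMPs latent, the cysteine switch, was found in 13 of 18 MMPs and is shown for MMP2 (exon 2, minus strand, chr6:30083746-30083796), MMP27 (exon 2, minus strand, chr9:33378614-33378664) and MMP8 (exon 2, minus strand, chr9:33394291-33394341), with the codons of the switch in capitals. MMP14 was among the 5 MMPs in which the searched letters were not found. The search was for a fixed form of these letters, so for these 5 no absence of a cysteine switch can be read from it.
MMP2: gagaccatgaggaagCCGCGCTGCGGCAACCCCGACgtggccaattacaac
MMP27: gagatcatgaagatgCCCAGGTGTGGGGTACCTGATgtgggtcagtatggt
MMP8: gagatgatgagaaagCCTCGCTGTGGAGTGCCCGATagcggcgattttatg

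Transcripts of the 63 members made up 0.205 to 0.523% of the named nuclear transcripts of a library, lowest in replicates 5 and 4 and highest in replicate 6. At the detection limit of 0.1 TPM as deposited, 31 of the 63 members (49.2%) were detected in all 6 libraries, against a background of 67.2% of the named nuclear genes. This count was set by replicates 4 and 5, and it was 55 in the other 4 libraries. At least 1 library had 60 of the members over the limit. The 3 others were ADAM30, listed at 0 in all 6 libraries, the tooth enamel protease MMP20 and the brain membrane-type protease MMP24. A mean of at least 1 rescaled TPM was reached by 52 members, and the 11 under it were ADAM18, ADAM21, ADAM30, ADAMTS16, ADAMTS19, ADAMTSL2, MMP13, MMP17, MMP20, MMP24 and MMP25.

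**Figure D1:**
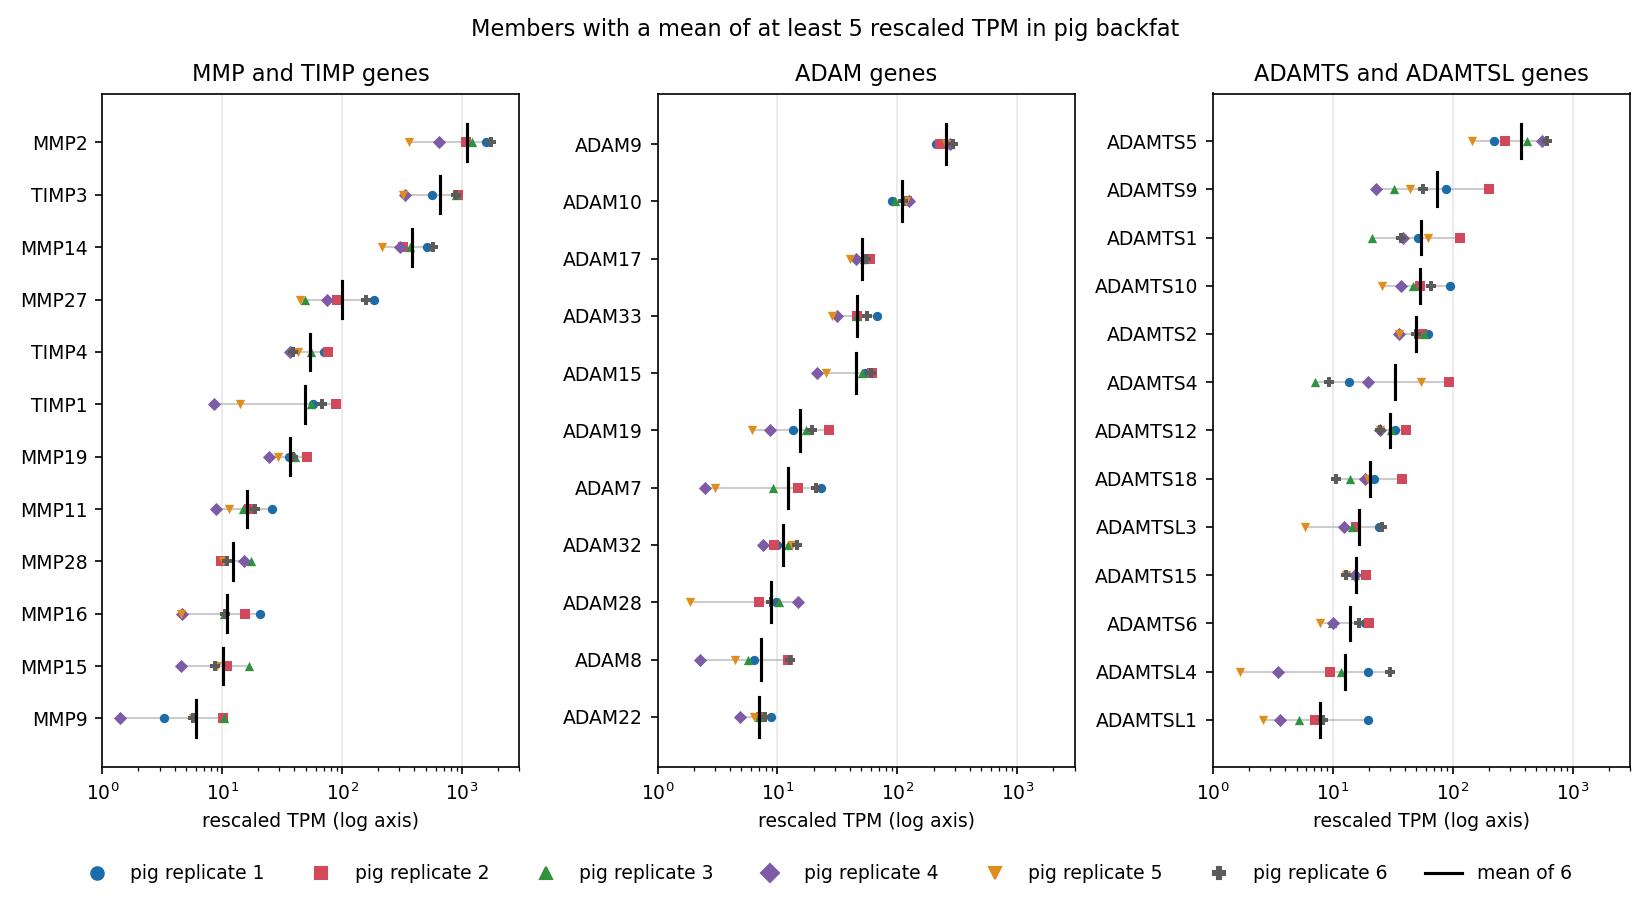
Level of each member with a mean of at least 5 rescaled TPM (log axis), with 1 symbol per pig library, a grey line for the range and a black bar for the mean of 6. MMP2 has the highest mean (1103), ADAM9, ADAM10 and ADAM17 show narrow ranges, and TIMP1, ADAM7 and ADAMTSL4 have both replicates 4 and 5 far to the left of the other libraries on this scale.

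The MMP transcripts of backfat were mostly those of a gelatinase and its activator. MMP2, which degrades denatured collagen and basement membrane collagen, had 362, 1142 and 1742 rescaled TPM as the lowest, median and highest of the 6 libraries, with a mean of 1103 ± 533 (SD, n = 6). It ranked 83rd of the 14844 named nuclear genes and held 63.4% ± 6.70 (SD, n = 6) of the summed MMP level. Replicates 4 and 5 were below every other library, at 644 and 362 against 1069 to 1742. As deposited, the same gene had 17.1, 288 and 459 TPM.

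MMP9, the other gelatinase and an enzyme known from neutrophils and macrophages, had 1.40, 5.69 and 10.3 rescaled TPM (mean 6.07 ± 3.57, SD, n = 6). MMP2 thus held 99.3% ± 0.534 (SD, n = 6) of the gelatinase transcripts, and at least 98.4% in each library. The summed macrophage markers ran from 300 to 672 rescaled TPM, lowest in replicate 5, and the neutrophil marker S100A8 from 4.98 to 263, highest in replicate 5. The other neutrophil marker found, CSF3R, ran from 1.19 to 10.9, highest in replicate 2. All 6 macrophage markers and 1 of the 2 neutrophil markers found were over 0.1 TPM in each library. Their part in the MMP9 level was not tested.

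MMP14, the membrane-type protease that cleaves the MMP2 precursor on the cell surface, had 216, 345 and 577 rescaled TPM (mean 384 ± 136, SD, n = 6) and ranked 338th. It held 94.4% ± 1.97 (SD, n = 6) of the transcripts of the 6 membrane-type MMPs. The related MMP16 had 4.51, 10.4 and 20.7 rescaled TPM, and MMP15 had 4.54, 9.94 and 16.7. MMP17, MMP24 and MMP25 had means of 0.460, 0.0924 and 0.599. Replicate 6 was the highest and replicate 5 the lowest for both MMP2 and MMP14. The ratio of MMP2 to MMP14, which does not depend on a single factor applied to a library, was 3.02 to 3.33 in replicates 1, 2, 3 and 6, 2.12 in replicate 4 and 1.67 in replicate 5.

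MMP27, a stromelysin-like protease about which little is known, was the third most abundant MMP, with 44.8, 83.0 and 184 rescaled TPM (mean 100.4 ± 58.1, SD, n = 6). It was highest in replicates 1 and 6, and replicate 3, at 49.0, lay next to the lowest, replicate 5. MMP19, a widely expressed MMP of connective tissue, had 24.3, 37.4 and 51.3 rescaled TPM, and MMP11, which is typical of fibroblasts and is made active inside the cell by furin, had 8.84, 15.8 and 25.8. MMP28 had 9.78, 10.6 and 17.4 and was among the 2 of 13 MMPs whose CV over the pigs (0.265; MMP19 0.256) was below the median of all genes, 0.327.

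The interstitial collagenases, which cut fibrillar collagen, were low in each library. Together MMP1, MMP8 and MMP13 summed to 1.92 to 9.26 rescaled TPM, while their substrates COL1A1 and COL3A1 had means of 2428 and 8026. MMP1 had 0.727, 2.15 and 4.10 rescaled TPM, and MMP13 had 0, 0.221 and 0.606. MMP8, the neutrophil collagenase, had 0.299, 0.639 and 4.55, and the highest value, in replicate 6, was 4.95 times the next. Of the neutrophil markers found, S100A8 was lowest in that library, while CSF3R was at 3.15 there, inside its range of 1.19 to 10.9. The macrophage elastase MMP12 had 1.42, 2.38 and 7.18, and MMP7, a small secreted protease of epithelia, had 0.413, 1.64 and 4.16.

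These genes sit side by side in the genome. MMP7, MMP20, MMP27, MMP8, MMP1, MMP12 and MMP13 lie in this order on the minus strand at chr9:33214590-33616700, with 4.205 kb between MMP27 and MMP8 and 14.1 to 65.4 kb between the other neighbours. MMP27 had a mean of 100.4 rescaled TPM and the other 6 genes had means of 0.0542 to 3.19. The lowest MMP27 value, 44.8, was above the highest value of any of the other 6 genes, 7.18, so the levels did not overlap in any library.

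**Figure D2:**
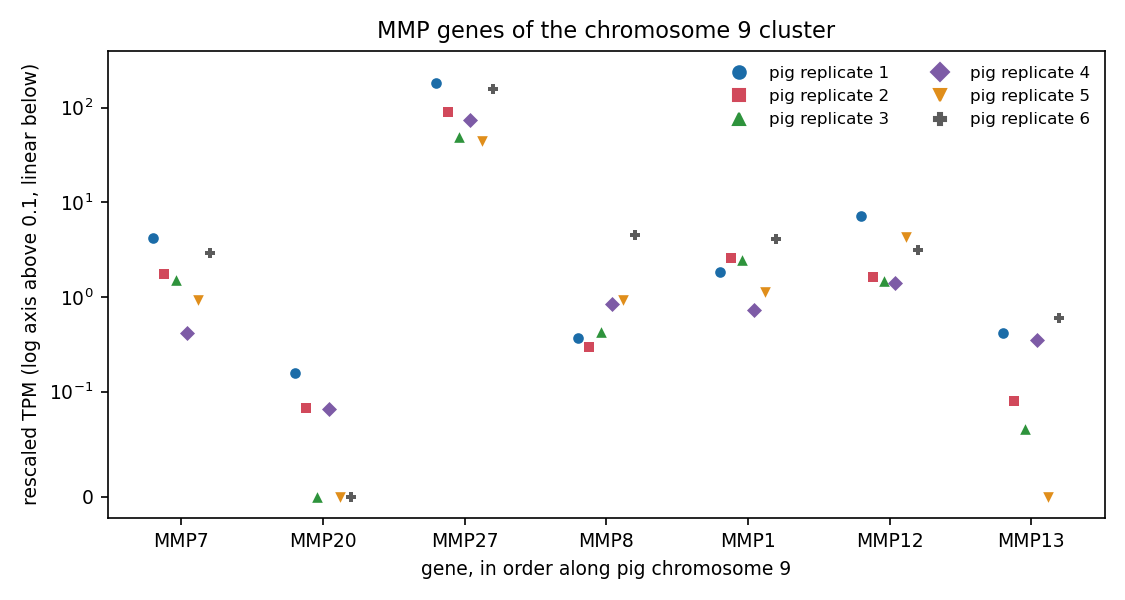
Rescaled TPM of the 7 measured MMP genes of the chromosome 9 cluster, placed in genome order, with 1 symbol per pig library (log axis above 0.1, linear below). MMP27 lies at 44.8 to 184 in the 6 libraries, and the 6 genes beside it lie at 7.18 or below.

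Of the inhibitors, TIMP3 was the most abundant of the 3 measured. This protein, which binds to the matrix and blocks ADAM17 and ADAMTS enzymes as well as MMPs, had 321, 724 and 929 rescaled TPM (mean 655 ± 285, SD, n = 6) and ranked 178th. It held 86.3% ± 3.05 (SD, n = 6) of the TIMP transcripts measured. Replicates 4 and 5, at 336 and 321, were below the other 4 libraries, at 563 to 929.

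TIMP4, an inhibitor known from adipose and heart tissue, had 37.0, 49.2 and 75.6 rescaled TPM (mean 53.4 ± 16.6, SD, n = 6), and replicates 4 and 5 overlapped the others. TIMP1, a secreted and readily induced inhibitor, had 8.52, 56.2 and 89.6 (mean 48.7 ± 31.5, SD, n = 6). The means of TIMP1 and TIMP4 differed by less than the SD of either. TIMP1 was at 8.52 and 14.1 in replicates 4 and 5 and at 55.1 to 89.6 elsewhere, a ratio of 0.168, which is 0.246 times the ratio of the median gene. The order in replicates 1, 3, 4 and 5 was TIMP3, TIMP4, TIMP1, and in replicates 2 and 6 it was TIMP3, TIMP1, TIMP4. In replicate 3 TIMP4 and TIMP1 were nearly level, at 55.20 and 55.14. All 3 TIMPs were highest in replicate 2. TIMP1, TIMP3 and TIMP4 each lie inside a synapsin gene, SYN1, SYN3 and SYN2 in that order, on the opposite strand. The libraries were stranded, but no source used here says whether strand entered the quantification.

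The balance of inhibitor and protease was then compared within libraries. Summed TIMP over summed MMP was 0.287, 0.682, 0.574, 0.352, 0.541 and 0.383 in replicates 1 to 6, a mean log2 ratio of -1.16 ± 0.48 (SD, n = 6). The summed MMP level exceeded the sum of TIMP1, TIMP3 and TIMP4 in 6 of 6 libraries. TIMP2 is missing from that sum and would raise it, so the balance of MMPs with all TIMPs is not known. The ratio was lowest in replicate 1 and highest in replicate 2, and replicates 4 and 5 lay between them. TIMP3 over MMP2 was 0.354 to 0.889 and TIMP3 over MMP14 was 1.10 to 2.89, so TIMP3 was below MMP2 and above MMP14 in each of the 6 libraries. TIMP3 over ADAM17 was 7.40 to 17.04.

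**Figure D3:**
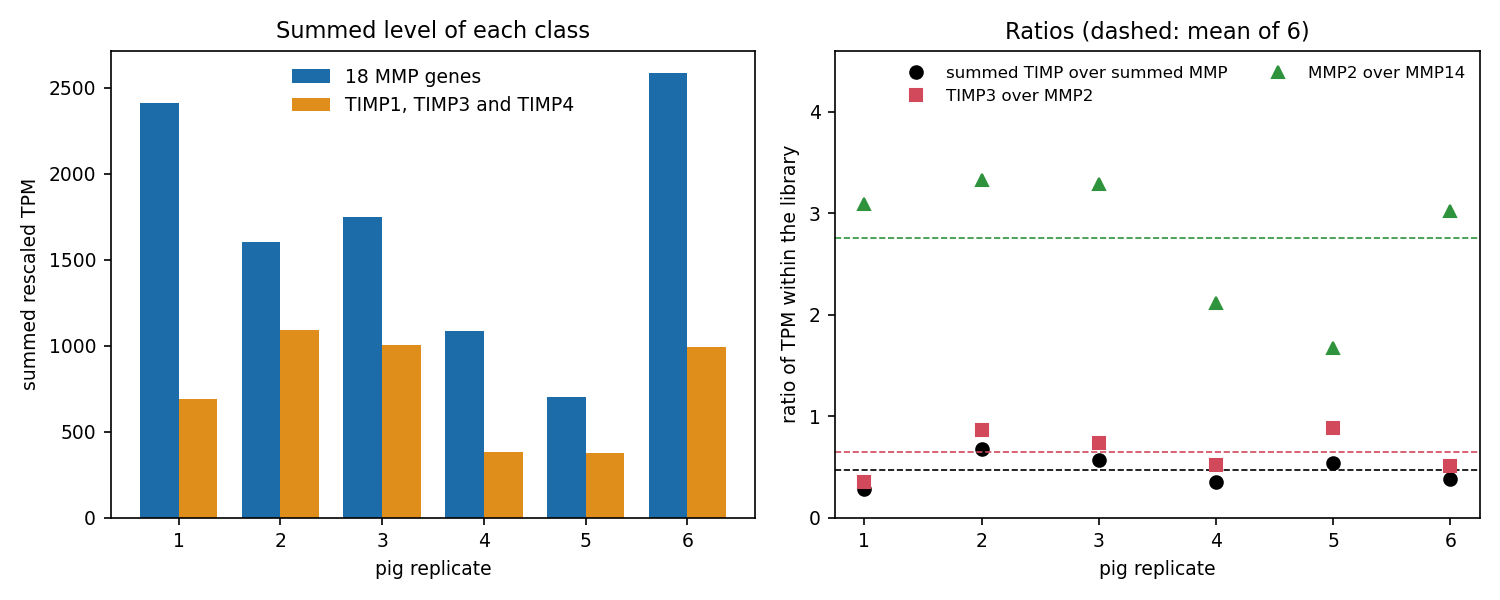
Left, summed rescaled TPM of the 18 MMPs and of TIMP1, TIMP3 and TIMP4 in each pig library (bars from 0). Right, ratios of TPM within each library, with a dashed line at the mean of 6. The MMP sum is above the TIMP sum in 6 of 6 libraries, and MMP2 over MMP14 is 3.02 to 3.33 in replicates 1, 2, 3 and 6 and lower in replicates 4 and 5.

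Other inhibitors and activators of these proteases gave a mixed picture. RECK, a membrane-anchored MMP inhibitor, had 17.7 to 44.7 rescaled TPM, and the broad protease trap A2M had 3.75 to 27.6. Of the plasminogen activators, PLAT had 128 to 198 and PLAU 20.2 to 44.5. FURIN, the convertase that removes the propeptide of membrane-type MMPs, ADAMs and ADAMTSs, had 30.4 to 56.4. On the rescaled TPM, 1 of 4 plasminogen system genes and 4 of 5 activation and trafficking genes were lower in both replicates 4 and 5 than elsewhere, and 1 plasminogen system gene, PLG, was higher in both. Of 11 matrix substrates, 8 were lower and 0 higher. Of all genes with a mean of at least 1 rescaled TPM, 50.1% were lower and 10.4% higher in the same sense, and with so few genes these counts are not read as a result about the lists. FN1 was at 278 and 321 in replicates 4 and 5 and at 664 to 1261 in the others.

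Of the 52 members with a mean of at least 1 rescaled TPM, ADAM9, ADAM10 and ADAM17 varied least over the 6 libraries on this scale. ADAM9, a widely expressed sheddase, had 209, 264 and 292 rescaled TPM (mean 255 ± 32.0, SD, n = 6), ranked 580th and held 44.3% ± 5.94 (SD, n = 6) of the ADAM transcripts. ADAM10, which cleaves Notch receptors, had 91.0, 115 and 124 (mean 110 ± 13.8, SD, n = 6). ADAM17, which releases TNF and ligands of the EGF receptor, had 39.9, 53.1 and 58.6 (mean 50.7 ± 6.80, SD, n = 6). The CV was 0.126, 0.126 and 0.134 for these genes, and 9.67, 9.64 and 11.6% of the 8866 genes with a mean of at least 10 rescaled TPM had a smaller CV. Without replicates 4 and 5 the CV was 0.159, 0.132 and 0.0484. Other members, such as ADAM11 (0.0440) and ADAM15 (0.0886), were then below ADAM9 and ADAM10, so the ranking depends on those libraries. The order ADAM9, ADAM10, ADAM17 was the same in each of the 6 libraries. ADAM9 and ADAM10 overlapped between replicates 4 and 5 and the others, and ADAM17, at 45.4 and 39.9, was just below the other 4 libraries, at 52.5 to 58.6.

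RHBDF1 and RHBDF2, the inactive rhomboids that carry ADAM17 to the cell surface, had 17.4 to 47.0 and 2.76 to 17.1 rescaled TPM, with replicates 4 and 5 below the others for both. Of the proteins that ADAM10 and ADAM17 cleave, NOTCH1 had 7.19 to 35.1 and the TNF receptor TNFRSF1A 66.7 to 104. The shed growth factors HBEGF and AREG had means of 6.41 and 7.88. DLK1, an ADAM17 substrate of preadipocytes, was at or near 0 in all 6 libraries, with 0.0417 the highest.

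ADAM15 and ADAM33, found in vascular and mesenchymal cells, had means close to that of ADAM17. ADAM15 had 21.3, 52.3 and 61.5 rescaled TPM, with 50.8 to 61.5 in replicates 1, 2, 3 and 6. ADAM33 had 28.6, 45.9 and 67.0. ADAM19 had 6.17, 15.5 and 27.1, and ADAM12, known from muscle regeneration and fat cell formation, had 0.871, 5.14 and 5.96. ADAM8, a leukocyte ADAM, had 2.26, 6.03 and 12.8, highest in replicates 6 and 2.

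Several ADAMs known chiefly from the male reproductive tract were low or at 0. ADAM30 was listed at 0 in all 6 libraries, ADAM18 was above 0 in replicate 1 alone (0.459 rescaled TPM), ADAM20 had a mean of 1.61, and ADAM21 was at 1.20 in replicate 1 and at 0 to 0.433 in the others. The exceptions were ADAM32, with 7.65 to 14.5 (mean 11.2 ± 2.62, SD, n = 6), and ADAM7, an epididymal protein without the zinc-binding codons, with 2.47, 12.0 and 23.0. ADAM7 was at 2.47 and 3.01 in replicates 4 and 5 and at 9.12 to 23.0 in the others. Of 5 germ cell markers, PRM1 and TNP1 were at 0 in all 6 libraries, and ZPBP was at 8.38 to 14.5. ADAM7 lies 45.8 kb from ADAM28 on chromosome 14 and holds a noncoding gene on its own strand. The neural adhesion ADAMs without the zinc-binding codons, ADAM11, ADAM22 and ADAM23, had means of 1.03, 7.03 and 2.01.

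ADAMTS5 was the most abundant ADAMTS and ranked 344th. This aggrecanase, which also cleaves versican, had 145, 344 and 618 rescaled TPM (mean 372 ± 191, SD, n = 6) and held 49.1% ± 19.2 (SD, n = 6) of the ADAMTS transcripts, from 29.04% in replicate 2 to 70.4% in replicate 4. It was highest in replicates 6 and 4 and lowest in replicate 5, so replicates 4 and 5 were at opposite ends of its range. Its namesake substrate aggrecan (ACAN) was near 0, at 0.0352 to 0.563, while versican (VCAN) had 59.0 to 87.9.

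ADAMTS1, ADAMTS4 and ADAMTS9, proteoglycan-cleaving enzymes known to be inducible, moved differently from ADAMTS5. ADAMTS9 had 23.2, 50.6 and 202 rescaled TPM (mean 74.4 ± 66.3, SD, n = 6), ADAMTS1 had 21.3, 44.8 and 115 (mean 54.3 ± 33.0) and ADAMTS4 had 7.10, 16.8 and 93.9 (mean 33.0 ± 34.4). Each was highest in replicate 2, and for ADAMTS9 and ADAMTS4 that library set the mean, which was 48.9 and 20.8 without it. The CV was 1.04 for ADAMTS4 and 0.891 for ADAMTS9, and 99.5 and 99.2% of the 8866 genes with a mean of at least 10 had a smaller CV. The sum of the 3 genes over ADAMTS5 was 1.51 in replicate 2, 1.11 in replicate 5, 0.696 in replicate 1 and 0.146 to 0.167 in replicates 3, 4 and 6. Multiplying a library by a single factor does not change this ratio. ADAMTS1 and ADAMTS5 are neighbours on chromosome 13, 67.1 kb apart on the same strand, and ADAMTS5 over ADAMTS1 ran from 2.33 to 19.6.

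**Figure D4:**
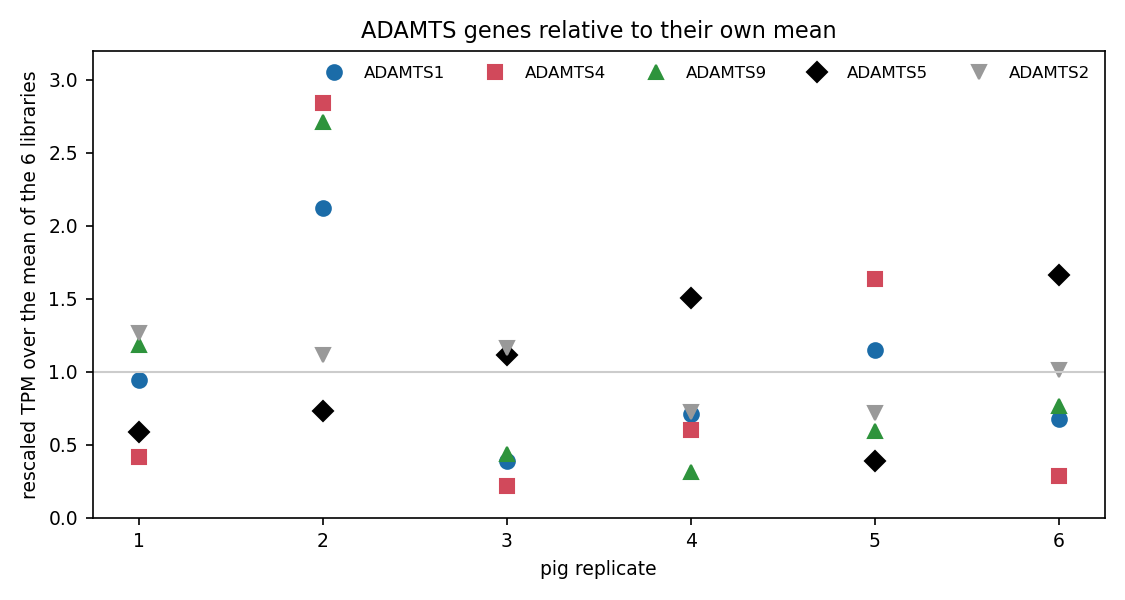
Rescaled TPM of 5 ADAMTS genes in each pig library, each divided by its own mean of 6 (grey line at 1). ADAMTS1, ADAMTS4 and ADAMTS9 are highest in replicate 2, ADAMTS5 is highest in replicate 6, and ADAMTS2 stays nearest to its mean.

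Replicate 2 also differed in heat shock genes and in part of the early response genes, lists added after the values were seen. The 5 heat shock genes summed to 5863 rescaled TPM there and to 1669 to 2342 in the other 5 libraries, with HSP70.2 at 1275 against 62.5 to 244. The early response genes ATF3, NR4A1, DUSP1 and CCN1 were highest in replicate 2, at 94.2, 217, 845 and 79.7. The rest of that list went otherwise, with FOS, JUNB and IER2 highest in replicate 5 and FOSB and EGR1 in replicate 1. The endothelial markers KDR and TEK were 112.5 and 107.9 in replicate 2 and 40.4 to 62.2 in the others. PECAM1 and CDH5 were less apart, at 875 and 226 in replicate 2 and 841 and 168 in replicate 6, the next highest. The 4 endothelial markers found summed to 1322 in replicate 2 and to 605 to 1115 in the others. The part of these in the ADAMTS levels was not tested. Of the ADAMTSs with a mean of at least 1 rescaled TPM, 10 of 17 were highest in replicate 2, as were 18 of the 52 members (34.6%), against 27.0% of all such genes. Replicate 1 was the highest for another 18 of the 52 members, against 22.4% of all such genes.

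Of the procollagen N-proteinases, ADAMTS2 had 35.6, 52.5 and 62.5 rescaled TPM (mean 49.4 ± 11.3, SD, n = 6) and held 90.7% ± 1.27 (SD, n = 6) of the sum with ADAMTS3 and ADAMTS14. ADAMTS3 and ADAMTS14 had means of 3.15 and 1.96. The range of ADAMTS2 was narrow beside that of COL1A1, which ran from 391 to 6180. In proportion, COL1A2 (1483 to 4076) and COL3A1 (4378 to 12882.5) varied less than COL1A1. ADAMTS10, a microfibril-associated member, had 25.7, 49.8 and 95.0, and FBN1, the fibrillin of those microfibrils, 238 to 357. ADAMTS12, which cleaves cartilage oligomeric matrix protein, had 24.6, 27.9 and 41.1. ADAMTS13, the von Willebrand factor protease made chiefly in liver, had 0.242, 1.41 and 2.44, and CACFD1 lies inside its annotated span on the same strand, so its reads may be shared. ADAMTS6 shares its edge with CENPK in the same way and had 7.85, 13.3 and 20.2. ADAMTS18 had 10.7, 19.1 and 37.6, highest in replicate 2, and ADAMTS15, next to ADAMTS8 on chromosome 9, had 12.9, 15.4 and 19.1, while ADAMTS8 had a mean of 1.07.

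The ADAMTSLs, matrix proteins without a protease domain, were low and uneven. ADAMTSL3 had 5.87, 15.1 and 25.7 rescaled TPM and held 46.5% ± 9.81 (SD, n = 6) of the class. ADAMTSL4, which binds fibrillin microfibrils, had 1.69, 10.7 and 30.3, and ADAMTSL1 had 2.61, 6.20 and 19.8. ADAMTSL5 had 0.126, 1.13 and 2.12, and ADAMTSL2 had a mean of 0.691. The 4 ADAMTSLs with a mean of at least 1 were each lower in both replicates 4 and 5 than in the other libraries on the rescaled TPM, as were 50.1% of all such genes. Their median ratio of these libraries to the others was 0.334 times that of the median gene on the rescaled TPM. It was 0.426 times after quantile normalization but 1.22 times after median-centring, so its direction depends on the scale. In replicates 4 and 5 the 5 ADAMTSLs together summed to 0.667 and 0.522 TPM as deposited, under the 1 added before the log for median-centring. The median-centred value is therefore set largely by the added 1 and cannot show a direction.

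Across all classes, 29 of the 52 members with a mean of at least 1 rescaled TPM (55.8%) were lower in both replicates 4 and 5 than in each of the other 4 libraries, against a background of 50.1% of all such genes, and 0 of 52 were higher in both, against 10.4%. These counts belong to the scale: after median-centring of log2(TPM + 1) they were 12 lower and 22 higher, and after quantile normalization 13 and 4, against 35.7 and 32.5% and 25.8 and 27.4% of all genes, so no direction common to the members can be given. The class medians other than that of TIMP were 0.0472 to 0.372 TPM as deposited in replicates 4 and 5, under the 1 added before the log. The median-centred counts are therefore set in large part by the added 1. By class the lower members were 7 of 13 MMPs, 2 of 3 TIMPs, 9 of 15 ADAMs, 7 of 17 ADAMTSs and 4 of 4 ADAMTSLs on the rescaled TPM. Set against the median gene, MMP2 in replicates 4 and 5 was at 0.526 times and TIMP3 at 0.591. In the same way TIMP1 was at 0.246, ADAMTSL4 at 0.213 and ADAM7 at 0.237. Each of these 5 was also under the median gene after quantile normalization (0.264 to 0.415). After median-centring MMP2 and TIMP3 were at 0.237 and 0.277. TIMP1, ADAMTSL4 and ADAM7 were under 1 TPM as deposited in replicates 4 and 5. Their median-centred values (0.271, 0.744 and 0.807) are therefore set largely by the added 1 and cannot show a direction. On the rescaled TPM, ADAM9 and ADAM10 were at 1.55 and 1.70 times the median gene. They were above it after quantile normalization (1.13 and 1.42) but below it after median-centring (0.740 and 0.880).

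The fibroblast markers moved in part with these members. PDGFRA was at 126 to 185 rescaled TPM in all 6 libraries, with replicates 4 and 5 inside the range of the others, while COL1A1 was at 391 and 716 in them and at 2058 to 6180 elsewhere. The 6 fibroblast markers summed to 9615 to 28280, lowest in replicate 4, with replicate 5 inside the range of the others. MMP2 over PDGFRA was 8.48 to 9.77 in replicates 1, 2, 3 and 6, 4.49 in replicate 4 and 2.72 in replicate 5. MMP2 over DCN was 0.183 to 0.210 in the same 4 libraries, 0.142 in replicate 4 and 0.0828 in replicate 5. MMP2 over COL1A1 went otherwise, with 1.65 in replicate 4 as the highest of the 6 and 0.505 in replicate 5 inside the 0.257 to 0.620 of the others, so the direction of MMP2 relative to fibroblast markers depends on the marker. ADAM9 over PDGFRA was 1.28 to 1.94, with replicates 4 and 5 among the higher values.

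On the rescaled TPM, the median spread between pigs was wider for the members than for all genes. The median CV (SD over mean of the 6 libraries) was 0.456 for the 52 members and 0.327 for all 12130 genes with a mean of at least 1 rescaled TPM, and 36 of the 52 members were above the latter. The highest library was a median of 3.69 times the lowest for the members and 2.40 times for all genes. Without replicates 4 and 5 the median CV was 0.288 for the members and 0.188 for all genes. By class the median CV was 0.564 for MMPs, 0.436 for TIMPs, 0.386 for ADAMs, 0.383 for ADAMTSs and 0.796 for ADAMTSLs.

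The start of each gene was searched for short promoter letters, since AP-1, the FOS and JUN complex, is known to drive several MMPs. In the 250 bases upstream of the annotated start, on either strand, TGAGTCA occurred in 3 of 59 members (5.08%) and in 2.90% of 19556 genes, TGACGTCA in 0 of 59 and in 1.70%, and TATAAA in 9 of 59 (15.3%) and in 9.77%. The 3 members were MMP9, MMP12 and MMP19, whose sites are shown with the letters in capitals, at chr17:48179566-48179594 (plus strand), chr9:33483742-33483770 (minus strand) and chr5:21285944-21285965 (minus strand) of Sscrofa11.1. A match only describes the letters and is no evidence of binding. None of ADAMTS1, ADAMTS4 and ADAMTS9 had TGAGTCA or TGACGTCA in this window.
MMP9: tccgcatccccTGAGTCAgctctccccta
MMP12: gagatcaactgTGAGTCAtgcaaaggatt
MMP19: cttctctgggcTGAGTCAcctc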

How the data were processed

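Total RNA of the backfat of 6 pigs was depleted of ribosomal RNA and sequenced as stranded libraries, per the labels. The authors computed TPM per gene with Kallisto 0.43.0 on Sscrofa11.1 and deposited 1 table of 25880 IDs. TPM keep no read counts, so depth and counting error are unknown, and precision rests on the spread between pigs. Symbols came from a name table (14857 IDs). The 13 mitochondrially encoded genes were removed before rescaling. Members and lists were chosen with earlier results of these data known. A gene of the inhibitor list is not reported here. The members with values in the text follow a rule: the TIMPs, the 4 most abundant of each other class, the 5 of largest CV with a mean of at least 5 rescaled TPM, and a panel. Others are given by their mean, or, chosen after their values were seen, in full. No test between groups was run. Gene models were RefSeq, matched by symbol. Scaling, CV and the counts of non-overlap were tested on simulated data. Alternatives were other scalings, thresholds and left-out libraries. Python 3.11.15, pandas 2.3.3 and Biopython 1.88 were used. The rat table was not used here.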

Additional observations from a re-analysis of the deposited data

Results flagged for a closer look

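Each of 34 named members on both scales, the class medians, the class shares and the TIMP to MMP ratio, 79 sets of 6 values, were examined for a library separated from the rest by a gap beyond Dixon's 95% critical value for 6 values, which chance gives in about 1 of 20 sets. Such a gap was found in 4. ADAMTS9 was at 202 rescaled TPM in replicate 2, and ADAMTS4 was at 22.6 TPM as deposited in the same library. ADAMTSL1 was at 19.8 rescaled TPM in replicate 1, and the median ADAMTSL level was 19.6 there.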

How the results depend on the processing

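The share of the leading gene in each class and the TIMP to MMP ratio moved by less than 1 SD under each alternative run. Of the members, 31 were detected in all 6 libraries, 13 at over 1 TPM, 56 at over 0.1 rescaled TPM and 55 without replicates 4 and 5, an alternative added after the data were seen. Median levels followed the scale. The MMP median was 4.86 rescaled TPM, and 1.03 TPM as deposited, 0.980 after median-centring, 1.01 after quantile normalization and 1.25 without mitochondrially encoded and ribosomal protein genes only. In the same order these were 60.5, 12.5, 9.16, 11.7 and 15.1 for TIMP, 7.51, 1.61, 1.37, 1.53 and 1.93 for ADAM, and 11.2, 2.18, 1.85, 2.31 and 2.64 for ADAMTS. The median CV of 0.456 became 0.750 as deposited, 0.364 after quantile normalization and 0.767 without mitochondrially encoded and ribosomal protein genes, 0.363 to 0.483 with 1 library left out, and 0.288 without replicates 4 and 5. The median CV of all genes was taken on the rescaled TPM only. Whether the wider spread of the members holds on another scale was not tested. The 29 members lower in replicates 4 and 5 became 51 as deposited, 12 after median-centring, 13 after quantile normalization, 51 without mitochondrially encoded and ribosomal protein genes and 17 at a mean of at least 10 rescaled TPM. The 0 members higher there became 22 after median-centring and 4 after quantile normalization. The median-centred count is set in large part by the 1 TPM added before the log. The means of the 34 named members moved by less than 1 SD when 1 library was left out, and 28, 28, 30 and 27 of them moved by more under these 4 scalings in the same order. The ADAMTSL median, 7.57 ± 6.36 (SD, n = 6), stayed within 1 SD under each. No paired analysis was possible because there was 1 group.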
